A study of Mus musculus with 11 samples.

Results

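The subject is a set of 10 target genes of the YAP/TEAD transcription complex, Ankrd1, Amotl1, Amotl2, Lats2, Ajuba, Axl, Crim1, Tead1, F3 and Ptpn14. They were taken by gene symbol from the 32868 symbols of the deposited table by a rule that uses no measured value. The members and the gene lists used below were, however, chosen with earlier results of these data known. Their shares set against all genes are therefore descriptive. All 10 were found, and all 10 passed the filter on low counts that left 9932 genes for testing. The libraries are bulk RNA-seq libraries of primary neonatal lung fibroblasts of the mouse, sorted by flow cytometry, from PAD2KO cells, which lack peptidylarginine deiminase 2, an enzyme that converts arginine in proteins to citrulline, and from WT cells. In batch 2 there were 2 PAD2KO libraries (PAD2KO 6 and 7) and 3 WT libraries (WT 5, 6 and 7). In batch 1 there were 3 PAD2KO libraries (PAD2KO 1, 2 and 3) and 3 WT libraries (WT 1, 3 and 4). The labels name no treatment for any library, although the series title speaks of TNFa, and they give no sorting gate, strain or knockout design. They also do not say whether libraries came from separate animals, so p-values measure the spread between libraries, which may be partly technical.

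YAP and TAZ are transcriptional coactivators that do not bind DNA themselves and act through the TEAD factors. The kinases of the Hippo pathway, with LATS1 and LATS2 at the end of the chain, phosphorylate YAP and TAZ and keep them out of the nucleus, and several genes that restrain YAP are also its targets, so that the pathway feeds back on itself. In fibroblasts YAP and TAZ are known to respond to substrate stiffness and actin tension, and lung fibroblasts use them in producing matrix and contractile proteins.

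Members whose proteins act outside the pathway are F3, Ankrd1, Axl and Crim1. F3 is tissue factor, the cell-surface receptor that starts blood coagulation. Ankrd1 is an ankyrin repeat protein found in the nucleus and the sarcomere and a widely used readout of YAP activity. Axl is a receptor tyrosine kinase for the ligand Gas6, and Crim1 is a transmembrane protein that binds bone morphogenetic proteins. Tead1 is one of the TEAD factors. The other 5 members feed back on the pathway. Amotl1 and Amotl2 are angiomotin family scaffolds that hold YAP at junctions and actin, Lats2 is a YAP kinase, Ajuba is a LIM protein that restrains the LATS kinases, and Ptpn14 is a phosphatase that binds YAP.

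Promoter stretches are shown because the members were grouped as TEAD targets and the letters GGAATG, read on either strand (CATTCC on the other), are the core of the TEAD binding element. The windows, from RefSeq with coordinates of GRCm38.p6, run from 250 bases before to 50 bases after each gene's start, 300 bases in all. Of the 10 members, 9 had an entry, Tead1 being the exception, and 7 of those 9 held GGAATG. It was found in 14.7% of the 32851 windows of the table. Counted by gene, as for the members, 16.6% of 27025 symbols had a window with it. The seventh, Lats2, held it 4 bases after the start, so no stretch of it is shown, and another Lats2 window held none. Amotl1 and F3 held no such letters in the window. The letters TGAGTCA, also read on both strands and known as the binding element of AP-1, share no bases with GGAATG here. They stood in the F3 window and in no other member's. Among all windows 5.2% held them, and 5.95% of symbols. A match is a description of letters and not evidence of binding. Capitals mark the matches. The stretches lie, in the order below, at chr19:36119937-36120079 (minus strand), chr9:102717714-102717769 (plus), chr14:54577795-54577872 (minus), chr7:25788936-25788983 (minus), chr17:78200144-78200199 (plus), chr1:189728097-189728152 (plus) and chr3:121723377-121723433 (plus).
Ankrd1: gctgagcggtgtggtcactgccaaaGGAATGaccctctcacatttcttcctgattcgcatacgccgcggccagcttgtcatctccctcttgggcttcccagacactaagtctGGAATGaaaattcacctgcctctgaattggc
Amotl2: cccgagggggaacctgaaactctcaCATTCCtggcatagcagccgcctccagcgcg
Ajuba: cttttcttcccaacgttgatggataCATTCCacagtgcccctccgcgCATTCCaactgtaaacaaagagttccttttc
Axl: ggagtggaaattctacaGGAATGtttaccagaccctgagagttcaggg
Crim1: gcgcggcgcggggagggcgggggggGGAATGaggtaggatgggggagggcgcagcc
Ptpn14: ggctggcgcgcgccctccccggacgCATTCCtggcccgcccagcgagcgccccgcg
F3: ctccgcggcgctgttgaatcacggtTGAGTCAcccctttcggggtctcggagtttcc

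In Ankrd1 the matches begin 210 and 123 bases before the start, and in Ajuba they begin 186 and 164 bases before it. Single matches begin 65 bases before the start of Amotl2, 79 before Crim1, 146 before Ptpn14 and 233 before Axl. The TGAGTCA of F3 begins 135 bases before its start.

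Library totals of named genes were 962633 to 1421243 counts, and 3 counts, the limit that a count of 0 allows, correspond to 2.11 to 3.12 CPM, counts scaled to a fixed library total. The smallest total belonged to WT 7, which also had the highest summed immune marker level, 188 CPM against 15.3 to 65.1 CPM in the other libraries. Of that sum 164 CPM was Lyz2, and Ptprc was at 2.15 CPM in WT 7. Padi2, the gene that PAD2KO cells lack, had 0 to 4 counts in PAD2KO libraries and 0 to 2 in WT libraries, so its level could not check the genotype labels. Fibroblast markers summed to 4254 to 4376 CPM in PAD2KO and 4869 to 5299 CPM in WT libraries of batch 2. In batch 1 they summed to 10269 to 12077 CPM in PAD2KO and 10952 to 14630 CPM in WT libraries. Most of each sum was Col1a1, Col1a2 and Col3a1. The mean of Col3a1 was 1013 CPM in PAD2KO and 1483 in WT in batch 2, and 5644 and 6742 in batch 1. For Pdgfra the means were 625 and 696 CPM in batch 2 and 607 and 605 in batch 1. Between batches, 2 of the 6 fibroblast markers tested had a positive fold change and 4 a negative one, in each genotype. The 6 endothelial markers together reached at most 12.9 CPM and the 6 epithelial markers at most 41.1 CPM, most of it Krt18, with Sftpc and Nkx2-1 at 0 in all 11 libraries. The 5 pericyte markers, mostly Kcnj8, summed to 159 to 188 CPM in PAD2KO and 213 to 281 CPM in WT libraries of batch 2, and to 170 to 188 CPM in PAD2KO and 181 to 219 CPM in WT libraries of batch 1, with Higd1b at 0 throughout. The 5 mesothelial markers summed to 50.1 to 91.1 CPM in PAD2KO and 52.6 to 90.8 CPM in WT libraries of batch 2, and to 90.8 to 255 CPM in PAD2KO and 200 to 348 CPM in WT libraries of batch 1. Of these, only Msln was called in batch 2, higher in PAD2KO, at 9.03 and 6.36 CPM against 0.738, 0.794 and 0 CPM in WT. The WT values were below the limit that a count of 0 allows. Among the 4 mesothelial markers tested, 3 had a positive fold change in batch 2 and 1 a negative one. The negative one was Wt1 (-0.86, adjusted p = 0.278 in edgeR). The part of these cell types in the member values was not tested.

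Levels between genes are compared per length, on the TPM scale of the deposited table, as medians over the 11 libraries. Axl was the highest member at 368 TPM (309 to 479), followed by F3 at 221 TPM (88.3 to 274) and Amotl2 at 155 TPM (50 to 222). The other 7 were lower, with Tead1 at 40.1, Ankrd1 at 37, Lats2 at 34.2, Ptpn14 at 21.4, Ajuba at 20.8, Amotl1 at 14.1 and Crim1 at 13.9 TPM. The range of Axl lay above that of F3, and the ranges of every other neighbouring pair in this order overlapped. Counts were lowest for Ajuba, at 17 to 69 per library. All later levels are CPM scaled by TMM factors, and all differences are log2 fold changes from edgeR's quasi-likelihood test, called where the Benjamini-Hochberg adjusted p over the 9932 genes was under 0.05.

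In batch 2, F3, Ankrd1 and Amotl2 were higher in PAD2KO than in WT fibroblasts, and in batch 1 no member passed the test. In batch 2 the 3 higher members stood against a background of 1.4% of the genes tested called higher, and 3.11% called in either direction. In batch 1, 0.131% of all genes were called. With both batches in one fit and batch as a term, 0 of 10 members and 0.191% of all genes passed. An unadjusted p under 0.05 was held there by 3 members and by 759 of the 9932 genes tested. The counts were 0 members and 545 genes in batch 1 alone, and 7 members and 1433 genes in batch 2. DESeq2 also called 0 members in the joint fit and in batch 1. With no filter on low counts, Ankrd1 (0.52, adjusted p = 0.0237) and F3 (0.48, adjusted p = 0.000359) passed in edgeR with batch as a term. In batch 2, 9 of the 10 members had a positive fold change, with a median of 0.51 against -0.0068 over all genes tested, and in batch 1, 4 were positive, with a median of -0.0087 against -0.0011. The PAD2KO and WT libraries of batch 2 did not overlap for 7 members, all higher in PAD2KO, where 15.5% of all genes were apart in that direction and 31.1% in either. In batch 1 only Ajuba was apart, lower in PAD2KO, where 11.3% of all genes were apart.

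**Figure D1:**
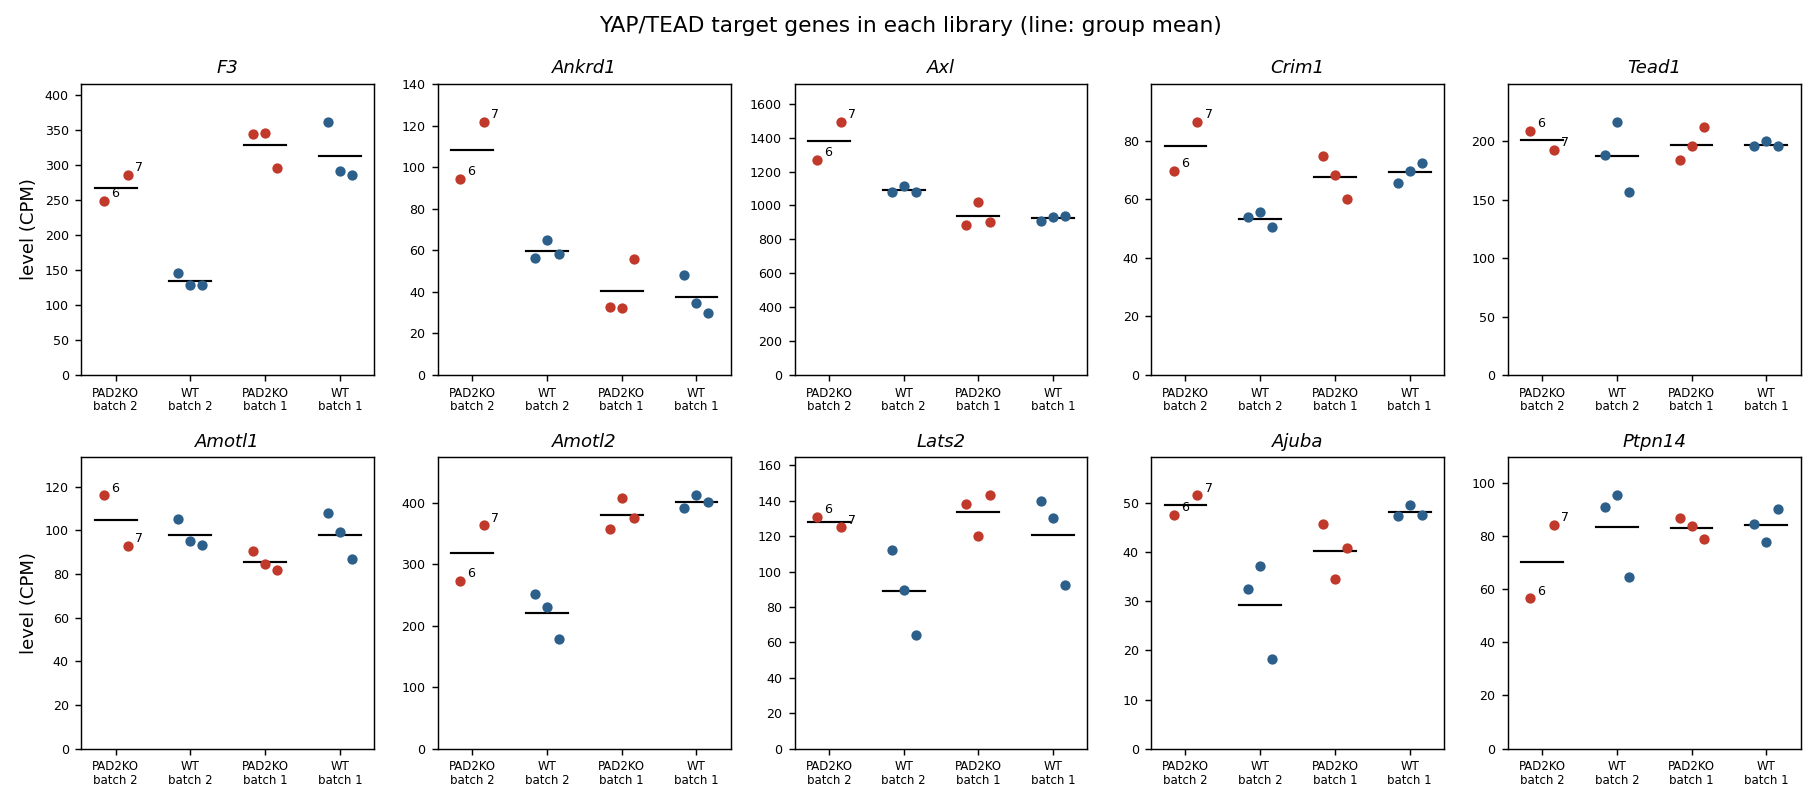
Level of each of the 10 members in CPM (axes from 0) in the 11 libraries. Points are libraries, lines are group means, and the numbers 6 and 7 mark the PAD2KO libraries of batch 2. F3 lies at 249 and 286 CPM in PAD2KO libraries of batch 2, above the 128 to 145 CPM of the WT libraries of that batch.

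F3 had the largest genotype difference of the 10 members in batch 2. It had 249 CPM in PAD2KO 6 and 286 in PAD2KO 7, against 145, 128 and 128 CPM in WT 5, WT 6 and WT 7. Both PAD2KO libraries lay well above all 3 WT libraries. The log2 fold change was 1.00 ± 0.135 (SE; adjusted p = 2.99e-05). In batch 1, F3 had 344, 346 and 295 CPM in PAD2KO libraries and 362, 291 and 285 CPM in WT libraries, which overlapped, and the log2 fold change was 0.07 ± 0.114 (adjusted p = 0.99). The batch 2 WT libraries were the low ones among the 4 groups. The difference between the genotype effects of batch 2 and batch 1 was 0.93 ± 0.177 (adjusted p = 0.00355), and F3 was the only member called in that interaction, in which 1.62% of all genes were called. Without PAD2KO 7 the interaction was 0.82 (adjusted p = 0.0731), and with gene lengths as offsets 0.93 (adjusted p = 0.0693).

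Ankrd1 had 94.4 CPM in PAD2KO 6 and 122 in PAD2KO 7, against 56.1, 65.1 and 58 CPM in the WT libraries of batch 2. The groups did not overlap, and the log2 fold change was 0.86 ± 0.204 (adjusted p = 0.0165). Without PAD2KO 7 it was 0.66 (adjusted p = 0.421), and the call was also lost without WT 5 (0.068) or WT 7 (0.0515) and with gene lengths as offsets (0.177). In batch 1 the levels were 32.9, 32.4 and 55.7 CPM in PAD2KO libraries and 48.1, 34.5 and 29.8 CPM in WT libraries, with no separation (log2 fold change 0.11 ± 0.22, adjusted p = 0.994). The interaction was 0.75 ± 0.301 (adjusted p = 0.284), so the genotype effect on Ankrd1 was not shown to differ between the batches.

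Axl had 1268 and 1495 CPM in PAD2KO libraries of batch 2, against 1082, 1116 and 1082 CPM in WT. All WT libraries were below both PAD2KO libraries, but the log2 fold change of 0.34 ± 0.108 did not pass (adjusted p = 0.0871). Crim1 had 69.8 and 86.6 CPM in PAD2KO and 53.9, 55.6 and 50.5 CPM in WT libraries of batch 2, and its log2 fold change of 0.55 ± 0.171 did not pass either (adjusted p = 0.0791). In batch 1, Axl had 885, 1023 and 903 CPM in PAD2KO and 909, 931 and 939 CPM in WT libraries, and Crim1 had 74.7, 68.3 and 60.1 CPM in PAD2KO and 65.5, 69.8 and 72.4 CPM in WT. Both genes overlapped between genotypes there, with log2 fold changes of 0.02 ± 0.0978 for Axl and -0.03 ± 0.149 for Crim1. Tead1 lay between 157 and 217 CPM in every library; its genotype difference was 0.09 in batch 2 with a 95% interval from -0.18 to 0.36, and in batch 1 the interval ran from -0.24 to 0.24.

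Among the feedback members, Amotl2 passed in batch 2. It had 273 CPM in PAD2KO 6 and 363 in PAD2KO 7, against 251, 230 and 179 CPM in WT 5, WT 6 and WT 7, so PAD2KO 6 lay close to the highest WT library. The log2 fold change was 0.52 ± 0.137 (adjusted p = 0.0293). The call rested on single libraries: the value was 0.30 without PAD2KO 7 (adjusted p = 0.649), 0.40 without WT 7 (0.126) and 0.55 without WT 6 (0.0606). In batch 1 Amotl2 had 358, 408 and 375 CPM in PAD2KO and 391, 412 and 402 CPM in WT libraries, which overlapped (-0.08 ± 0.119, adjusted p = 0.986). Its interaction was 0.60 ± 0.182 (adjusted p = 0.0996), and without PAD2KO 6 it was 0.79 (0.0223). The deposited effective lengths of Amotl2 ran from 1876 bases in PAD2KO 6 to 4114 in WT 7, with 2905 in PAD2KO 7. Per length the order of these PAD2KO libraries was reversed. Amotl2 had 167 TPM in PAD2KO 6 and 144 in PAD2KO 7, against 106, 73.2 and 50 TPM in WT 5, WT 6 and WT 7. With lengths as offsets the batch 2 value was 1.01 (adjusted p = 0.0837), and with batch 2 fitted alone it was 0.53 (0.0917).

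Lats2 had 131 and 125 CPM in PAD2KO and 112, 89.8 and 64.4 CPM in WT libraries of batch 2, and Ajuba had 47.6 and 51.6 CPM in PAD2KO and 32.5, 37.3 and 18.3 CPM in WT. Both sets were apart, with WT 7 lowest in each, yet neither passed: the log2 fold change was 0.50 ± 0.186 for Lats2 (adjusted p = 0.17) and 0.72 ± 0.233 for Ajuba (adjusted p = 0.0943). Lats2 passed without WT 5 (0.72, adjusted p = 0.0403) and with no filter on low counts (0.54, 0.0228). In batch 1 it had 138, 120 and 143 CPM in PAD2KO and 140, 130 and 92.6 CPM in WT libraries, which overlapped (0.14 ± 0.159, adjusted p = 0.971). In batch 1, Ajuba had 45.8, 34.5 and 40.8 CPM in PAD2KO libraries and 47.3, 49.7 and 47.5 CPM in WT libraries. The genotypes were apart there in the other direction, but Ajuba was not called (-0.26 ± 0.198, adjusted p = 0.951). The Ajuba interaction of 0.98 ± 0.306 was the largest estimate of the 10 members but was not called (adjusted p = 0.116). Amotl1 overlapped between genotypes in both batches, at 81.6 to 116 CPM in PAD2KO and 86.9 to 108 CPM in WT libraries. Ptpn14 differed most between the PAD2KO libraries of batch 2, at 56.6 CPM in PAD2KO 6 and 84.2 in PAD2KO 7, against 90.8, 95.3 and 64.4 CPM in WT, and it was the only member with a negative fold change there (-0.26 ± 0.182, adjusted p = 0.571).

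**Figure D2:**
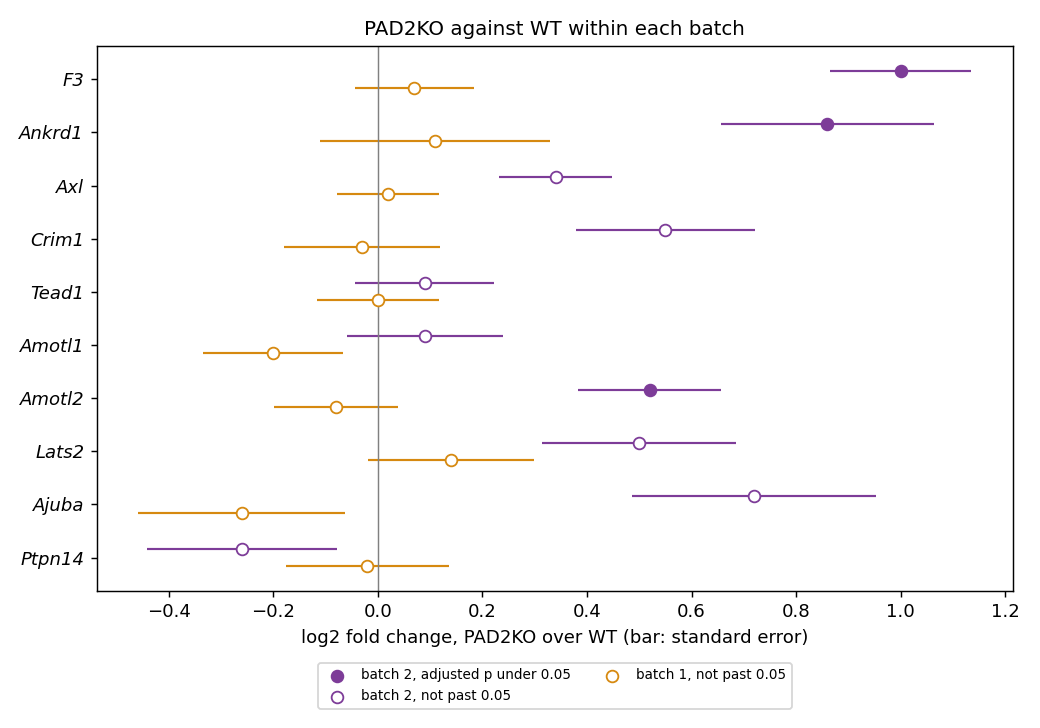
Log2 fold change of each member, PAD2KO over WT, in batch 2 and batch 1; points are estimates, bars standard errors, and filled points passed an adjusted p of 0.05. F3, Ankrd1 and Amotl2 are filled in batch 2, at 1.00, 0.86 and 0.52, and no point is filled in batch 1.

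The batch 2 fold changes of the members differed between the PAD2KO libraries of that batch. With PAD2KO 7 as the only PAD2KO library of batch 2, they were 1.10 for F3, 1.03 for Ankrd1 and 0.71 for Amotl2. With PAD2KO 6 alone they were 0.90, 0.66 and 0.30. These fits take the spread of the lone library from the other groups, so only effect sizes are compared here. The difference was widest for Ptpn14, at -0.58 with PAD2KO 6 alone and -0.0044 with PAD2KO 7 alone.

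Between batches, members moved in both directions. Ankrd1 and Axl were higher in batch 2 than in batch 1 in PAD2KO cells, and in WT cells Ankrd1 was higher while F3, Amotl2 and Ajuba were lower. In PAD2KO cells, 2 of 10 members were called higher and 0 lower, where 9.52% of all genes were called higher and 18.7% in either direction. In WT cells, 1 was called higher and 3 lower, where 11.7% of all genes were called higher, 10.6% lower and 22.3% in either direction. The batches were apart for 5 members in PAD2KO, 4 of them higher in batch 2, where 46% of all genes were apart, and for 6 members in WT, 4 of them lower, where 36.5% were. The share of members called in PAD2KO, 20%, was near the background.

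Ankrd1 was the only member called in the batch comparison of both genotypes. Its log2 fold change, batch 2 over batch 1, was 1.42 ± 0.211 in PAD2KO (adjusted p = 1.76e-05) and 0.67 ± 0.212 in WT (adjusted p = 0.0215), and the WT call was lost without WT 3 (0.0951), WT 4 (0.107) or WT 6 (0.0933) and with length offsets (0.166). Axl was 0.56 ± 0.108 in PAD2KO (adjusted p = 0.000367) and 0.24 ± 0.0978 in WT (adjusted p = 0.0814). F3 ran the other way, at -0.29 ± 0.129 in PAD2KO (adjusted p = 0.119) and -1.23 ± 0.122 in WT (adjusted p = 9.09e-09). The 3 WT libraries of batch 2 held F3 at 128 to 145 CPM, below every other library.

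Amotl2 was -0.26 ± 0.135 in PAD2KO (adjusted p = 0.201) and -0.86 ± 0.123 in WT (adjusted p = 4.33e-06). For Ajuba the values were 0.30 ± 0.221 in PAD2KO (adjusted p = 0.384) and -0.68 ± 0.211 in WT (adjusted p = 0.0197), and the WT call was lost without WT 3 (0.067) or WT 7 (-0.46, adjusted p = 0.112), in DESeq2 (0.0552) and with length offsets (0.161). The genotype and batch comparisons share libraries, so a high batch 2 genotype value and a low WT batch value of the same gene both hold the batch 2 WT libraries. Lats2 and Crim1 were lower in WT in batch 2 but not called (-0.42, adjusted p = 0.0794, and -0.37, 0.0907), although Lats2 passed without WT 4 (-0.58, 0.012) or WT 5 (-0.62, 0.0145), and Tead1, Amotl1 and Ptpn14 were not called in either genotype.

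**Figure D3:**
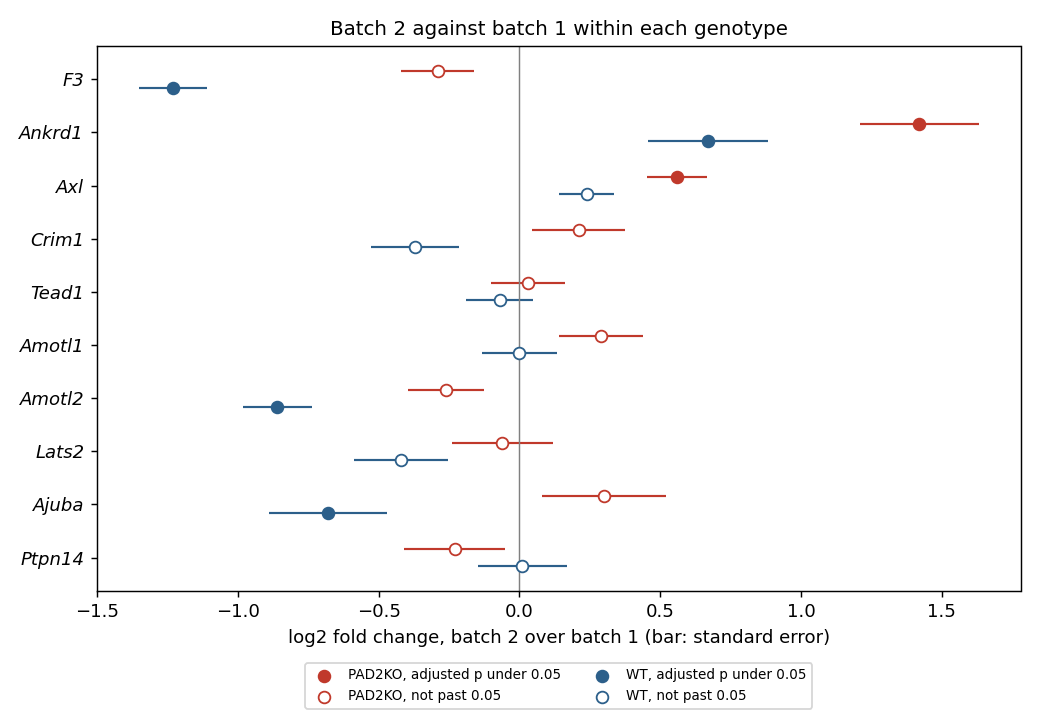
Log2 fold change of each member, batch 2 over batch 1, in PAD2KO and in WT; points are estimates, bars standard errors, and filled points passed an adjusted p of 0.05. Ankrd1 is filled in both genotypes, at 1.42 in PAD2KO and 0.67 in WT, while F3 is filled only in WT, at -1.23.

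The coactivators, TEAD factors and TEAD partners tested did not pass in the genotype comparisons with all libraries and the filter on low counts. Yap1 had 57.5 and 51.6 CPM in PAD2KO and 42.8, 53.2 and 56.9 CPM in WT libraries of batch 2, and Wwtr1, which encodes TAZ, had 54.2 and 44.5 CPM in PAD2KO and 36.9, 49.2 and 58 CPM in WT. Both overlapped. Of 8 effectors and TEAD partners, 6 were tested and 0 were called in batch 2 by edgeR or DESeq2. Those tested include Tead2, Tead3, Vgll4 and the TEAD partner Vgll3 (0.44, adjusted p = 0.0614). An unadjusted p under 0.05 was held by 1 of the 6, and by 1433 of the 9932 genes tested. Vgll3 was called higher in PAD2KO in batch 2 without PAD2KO 6 (0.59, adjusted p = 0.0259), without WT 6 (0.54, 0.0374) and with no filter on low counts (0.47, 0.0189). Tead4 was left out by the filter on low counts, with 13.1 and 16.7 CPM in PAD2KO and 7.94 to 16.1 CPM in WT libraries of batch 2, and 2.82 to 6.42 CPM in PAD2KO and 1.58 to 4.83 CPM in WT libraries of batch 1, and Vgll2 was at 0 throughout. Between batches Tead3 was lower in WT in batch 2 (-0.96, adjusted p = 0.0449), a call that was lost in DESeq2 (0.149) and without any one of WT 3, 4, 5, 6 or 7 (0.0617 to 0.167).

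Of 15 other genes of a YAP/TAZ signature, 12 were tested. The matricellular genes Ccn1 (0.62 ± 0.123, adjusted p = 0.00322) and Ccn2 (1.16 ± 0.296, adjusted p = 0.025), both classical YAP targets, were called higher in PAD2KO in batch 2, and 0 were called lower. Over all genes tested in batch 2, 1.4% were called higher and 3.11% in either direction. DESeq2 called 1 higher and 1 lower there, the lower being Igfbp3, an insulin-like growth factor binding protein, at -1.47 in both tools (adjusted p = 0.0366 in DESeq2 and 0.0715 in edgeR). The Ccn2 call was lost in DESeq2 (0.0809), with batch 2 fitted alone (0.0593) and without WT 6 (0.0993) or WT 7 (0.0685). Without PAD2KO 7 neither call held in edgeR, at fold changes of 0.57 for Ccn1 and 1.19 for Ccn2. The Ccn2 call was also lost without PAD2KO 6, at 1.14. Ccn1 had 1136 and 1215 CPM in PAD2KO and 854, 803 and 641 CPM in WT libraries of batch 2, and Ccn2 had 23.8 and 23 CPM in PAD2KO and 12.6, 8.74 and 9.66 CPM in WT. With batch as a term, where 0.191% of all genes were called, Igfbp3 was the 1 gene of this list called. It was lower in PAD2KO (-1.27 ± 0.218, adjusted p = 0.0119), and without WT 3 its adjusted p was 0.0716. Between batches, 1 of the 12 was called higher and 3 lower in batch 2 in PAD2KO, and 0 higher and 7 lower in WT. Over all genes, 9.52% were called higher and 18.7% in either direction in PAD2KO. In WT, 10.6% were called lower and 22.3% in either direction.

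Of 22 Hippo kinases, scaffolds and regulators, 19 were tested. In batch 2, 1 of them was called (5.26%), near the 3.11% of all genes called there. It was Dchs1, an atypical cadherin upstream of the pathway, lower in PAD2KO (-0.79 ± 0.201, adjusted p = 0.0248) and likewise with batch as a term (-0.68, adjusted p = 0.0271). The batch 2 call was lost in DESeq2 (0.0566) and without PAD2KO 7 (-0.54, 0.512), WT 5 (0.0826) or WT 6 (0.0682), the scaffold Amot was called higher without PAD2KO 6 (1.44, 0.0297), and the Dchs1 call with batch as a term was lost without any one of 6 libraries (WT 3, 4, 5 and 6, PAD2KO 3 and 7; 0.0847 to 0.172). Between batches, 1 of the 19 was called in PAD2KO and 4 in WT, where 18.7% of all genes were called in PAD2KO and 22.3% in WT. The kinase gene Map4k4 was higher in batch 2 in PAD2KO (0.91) and in WT (0.68), and Tnik (-2.18), Fat4 (-1.28) and Amot (-0.94) were lower in WT, of which Amot was not called in DESeq2 (0.0814) or without any one of WT 1, 3, 4, 5 and 6 (0.0575 to 0.211).

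A list of contractile genes controlled by SRF and MRTF, which like YAP respond to actin tension, also holds the regulators Srf, Mrtfa and Mrtfb. Of its 15 genes, all tested, 8 were higher in PAD2KO in batch 2 and 0 lower, with a median of 0.47, where 1.4% of all genes were called higher, and the 3 regulators were not among them. In batch 1, 0 were called by edgeR or DESeq2, with a median of -0.13. An unadjusted p under 0.05 was held there by 1 of them, and by 545 of the 9932 genes tested. Without PAD2KO 7 the batch 2 count was 4, and without WT 7 it was 7. Acta2, smooth muscle actin, had 3043 and 3958 CPM in PAD2KO and 1124 to 1350 CPM in WT libraries of batch 2 (1.49 ± 0.153, adjusted p = 1.86e-05). In the batch comparison 13 of the 15, Mrtfa and Mrtfb among them, were called lower in WT in batch 2, where 10.6% of all genes were. In PAD2KO 1 was called lower, Vcl, against 0 in DESeq2 or without PAD2KO 6 and 3 without PAD2KO 7. The interaction called 6, against 8 in DESeq2 or without PAD2KO 6 and 4 without PAD2KO 7, where 1.62% of all genes were called.

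Smooth muscle markers, of which Cnn1 and Actg2 are also in the contractile list, were called higher in PAD2KO in batch 2 for 4 of 6. The share of all genes called higher there was 1.4%. They summed to 1303 to 1505 CPM in PAD2KO and 455 to 693 CPM in WT libraries of batch 2, and to 1491 to 2203 CPM in PAD2KO and 1864 to 2204 CPM in WT libraries of batch 1. That count was 1 without PAD2KO 7, 3 without PAD2KO 6 and 2 without WT 7, and 5 of the 6 were called lower in WT in batch 2 than in batch 1. In that WT comparison 10.6% of all genes were called lower. The part of the smooth muscle markers in the member values was not tested. In bulk libraries fewer cells of a type and less RNA per cell cannot be told apart.

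**Figure D4:**
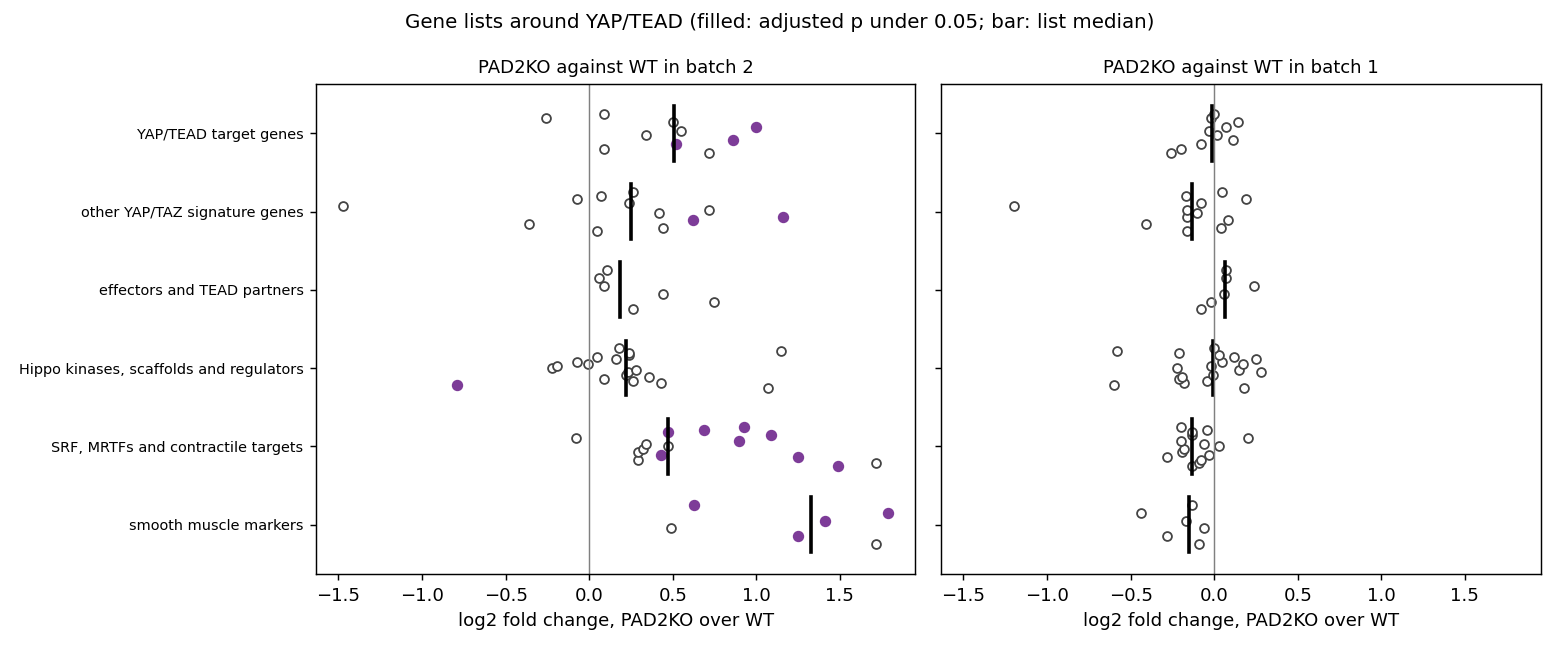
Log2 fold change, PAD2KO over WT, of every tested gene of 6 lists in batch 2 (left) and batch 1 (right) on the same axis; filled points passed an adjusted p of 0.05 and bars are list medians. The YAP/TEAD target genes have a median of 0.51 in batch 2 and -0.0087 in batch 1, and the list of SRF, MRTFs and contractile targets 0.47 and -0.13.

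By the root mean square difference of centred log2 CPM over the 11 libraries, searched over 9922 genes, the gene most like F3 was Col4a2 (0.162), and that most like Crim1 was the TEAD partner Vgll3 (0.0864). For Ankrd1 it was Raet1a (0.217), for Axl Ap1s1 (0.0769), for Amotl2 Arhgap1 (0.0932), for Ajuba Ube2g1 (0.151) and for Lats2 Rheb (0.129). It was Zfp62 for Tead1 (0.0627), Smim30 for Amotl1 (0.0789) and Psd3 for Ptpn14 (0.117). The root mean square of a member's own profile was 0.118 for Tead1, 0.145 for Amotl1, 0.21 for Ptpn14 and 0.215 for Crim1. It was 0.549 for F3 and 0.609 for Ankrd1. A small difference therefore need not mean a close match where the member itself varied little.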

How the data were processed

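Bulk RNA-seq of 11 libraries was analysed. Per the labels, RNA was taken with a silica column kit and libraries were prepared by a SMARTer mRNA method. No molecular identifiers are described, so the limit of 3 counts covers counting error only; standard errors and 95% intervals are from the fit and include the spread between libraries. The authors deposited estimated counts, TPM and effective gene lengths for each library. The submitters' processing notes name fastp, Salmon 1.3.2, DESeq2 1.46.0 and the build GRCm39, without roles or annotation. The deposited estimated counts are not whole numbers. Reads shared by similar genes are apportioned in such estimates, and the use of strand is not stated in the notes or labels. The deposited TPM values were used only to order levels between genes and to show Amotl2 per length. The effective lengths entered only as an alternative.

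Of 56065 entries, 23133 had no symbol and took 3.8% to 6.4% of a library's counts; they were left out. The rest were summed to 32868 symbols and rounded. Lats2 had 2 entries, the second with 2.174 counts over all libraries. Tests used edgeR 4.0.16 under R 4.3.3 (TMM, filterByExpr on genotype, robust quasi-likelihood fit, Benjamini-Hochberg adjustment at 0.05). Batch was a term in the joint fit, and a model of 4 group means gave the other comparisons and the interaction. The common biological coefficient of variation was 0.115. The fits were tested on simulated data with known changes. A log2 change of 0.5 was recovered for 14.1% of changed genes in batch 2, 12.7% in batch 1 and 4.84% in the interaction. For a change of 1 the shares were 58.2%, 70.4% and 29.9%. Alternatives were DESeq2 1.42.0, DESeq2 size factors, no filter, length offsets, a replicate block, subsets fitted alone and each library left out. WT 5 and WT 6 were the most alike pair (chi-square per degree of freedom 1.52, others 2.18 to 3.4) and were kept as 2 libraries.

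The members and lists were chosen with earlier results of these data known. Named genes are all members, the YAP, TAZ, TEAD, Vgll3, Vgll4, Ccn1 and Ccn2 genes, and up to 4 called genes of each list by p. Higd1b, Sftpc, Nkx2-1, Krt18, Kcnj8, Col1a1, Col1a2, Col3a1, Pdgfra, Lyz2, Ptprc, Wt1, Msln, Padi2, Vgll2 and the nearest-profile genes are named as checks. Promoter sequences are from RefSeq with GRCm38.p6 coordinates, another build than that of the notes, and were joined by symbol only; motifs were found with Python 3.11.15.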

Additional observations from a re-analysis of the deposited data

Results flagged for a closer look

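In 64 groups of 5 or 6 libraries (32 genes, 2 genotypes), 3 had a library far from the others, and chance flags about 1 in 20. They were Ptpn14, lowest in PAD2KO 6 at 56.6 CPM, Wwtr1, highest in PAD2KO 6 at 54.2 CPM, and Yap1, lowest in PAD2KO 7 at 51.6 CPM. These groups span both batches.

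The genotype effect differed between the batches, by the interaction test of edgeR, for 5 of the 32 genes examined. Acta2, Cnn1, Myl9 and Vcl were among the 32 because they were called in the comparisons, this one included. The 5 are therefore not a share to set against the 1.62% of all genes tested that were called in the interaction. The difference, batch 2 minus batch 1 in PAD2KO over WT on the log2 scale, was 0.93 for F3 (adjusted p = 0.00355), 1.61 for Acta2 (0.00048), 1.53 for Cnn1 (8.53e-05), 1.10 for Myl9 (0.000483) and 1.13 for Vcl (0.000483). In each the WT libraries of batch 2 were lowest of the 4 groups. The marker Msln, not among these 32 genes, was also called in the interaction (3.82, adjusted p = 0.0378). Its WT values of batch 2 were below the limit that a count of 0 allows. No cause was tested.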

How the results depend on the processing

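Members kept their side of the threshold and their direction in 912 of 990 values under alternatives, fell below it in 21, passed it in 11 and had another sign while uncalled in 46; none of the called values changed sign. The F3 call in batch 2 held in every alternative run. The genes called in the joint fit numbered 30 with DESeq2, 142 with no filter, 2 with length offsets and 4 without the batch term, against 19; with no filter 2 members passed there, Ankrd1 (0.52) and F3 (0.48). In batch 1 there were 58 with no filter, 2 with length offsets and 22 when fitted alone, against 13. In batch 2 there were 529 with no filter and 89 with length offsets, against 309, and with length offsets 1 member passed. Between batches in PAD2KO there were 1219 with DESeq2 and 865 with length offsets, against 1853, and in WT 1356 with length offsets, against 2212. The interaction gave 323 with no filter and 26 with length offsets, against 161, with 2 and 0 members. The cause was not tested. Leaving out each library gave 8 to 26 genes in the joint fit, 5 to 20 in batch 1, 65 (without PAD2KO 7) to 371 in batch 2, 1079 to 1947 between batches in PAD2KO, 1708 to 2303 in WT and 33 (without PAD2KO 7) to 233 in the interaction. Member counts were 1 to 3 in batch 2, 2 to 5 between batches in WT and 0 to 2 in the interaction.

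The replicate block, fitted on the libraries whose number occurs in both genotypes (1, 3, 6 and 7), gave 1 gene in the joint fit, 6 in batch 1, 246 in batch 2 and 116 in the interaction; Ankrd1 (adjusted p = 0.103) and Amotl2 (0.0544) lost their call in batch 2 and Lats2 gained it (0.74, adjusted p = 0.0257). Same-numbered libraries correlated at 0.00152 to 0.0487 in their deviations, and 2 of 4 matched their own number best, so the numbers were not taken as pairs.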
